A study of Mus musculus with 45 samples.

Results

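The 10 genes described here mark the epithelial lineages of the mammary gland, and their rows were taken by symbol from a table of 28454 genes counted in 45 RNA-seq libraries. Of these genes, 7 belong to the luminal set (Krt7, Krt8, Krt18, Krt19, Gata3, Elf5 and Esr1) and 3 to the basal set (Krt5, Krt14 and Trp63). The libraries came from mouse mammary tumour cell lines driven by MYC. MYAZ16.1e, MYAZ12.3i and MYAZ6.6g are primary tumour lines from MMTV-cMYC mice of the FVB/NJ strain, in which the mouse mammary tumour virus promoter drives MYC. Myc310 is also a primary tumour line, but only 1 such line was sequenced, from 1 transgenic animal with several tumours. LM1, LM2 and LM3 (together LM) were recovered from the lungs of young virgin FVB/NJ mice after Myc310 had been injected into the fat pad. LM1-LM came from the lungs after LM1 had been injected into the fat pad in turn. LM2-LM and LM3-LM are described as its biological replicates without naming the line injected, and these lines together are called LM-LM. Cells of these lung lines were cultured from bulk lung, and no sorting step is described. All of them therefore share the MYC transgene, the strain and, apart from the MYAZ lines, 1 founder line.

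Each line had 3 control cultures, giving 30 control libraries. MYAZ16.1e, Myc310, LM1 and LM1-LM also had 3 cultures each after 6 h in medium without cysteine and cystine, and 3 further control libraries came from MYAZ12.3i cells with NDI1, the yeast NADH dehydrogenase. The medium contained serum, insulin, hydrocortisone and EGF. The cultures of a line are technical replicates by the submitters' account, so in the subtype comparisons a p-value over cultures mixes the spread between cultures with that between lines, and values with the counts summed per line are given beside it. In the deprivation and NDI1 comparisons each group is 1 line, and the p-values measure only the spread between its cultures. Library depth ran from 19517859 to 29019988 counts, with a median of 22899900. Counts were scaled to CPM, the counts per 1000000 counts of a library, with edgeR's TMM factors over all 45 libraries.

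The mammary ducts and alveoli have an inner luminal layer and an outer basal, or myoepithelial, layer. Luminal cells build their intermediate filaments from the type II keratins Krt7 and Krt8 paired with the type I keratins Krt18 and Krt19, whereas basal cells use Krt5 with Krt14. Gata3 is the zinc finger factor that maintains luminal fate, Elf5 the ETS factor of alveolar progenitors, Esr1 the oestrogen receptor of hormone-sensing luminal cells, and Trp63 the p53 relative required in basal cells.

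The genes fell into groups far apart in level. Krt8, Krt18 and Gata3 were read at substantial levels in all 45 libraries, and Krt7 and Krt19 were present in all but varied widely between lines. Krt5, Krt14, Trp63, Elf5 and Esr1 were low, with at most 48 counts in a library. Esr1 was highest in MYAZ6.6g and in MYAZ12.3i with or without NDI1. Over the 45 libraries, Krt8 collected 984655 counts and Krt18 305631, against 215 for Krt14, 109 for Trp63, 30 for Krt5 and 1 for Elf5. The basal genes were thus present at trace levels in cells that carried large amounts of the simple epithelial keratins. In bulk RNA, fewer cells of a type and less RNA per cell cannot be told apart.

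On the GRCm38 build, Krt8 (ENSMUSG00000049382) lies at chr15:101996698-102004482 on the minus strand and Krt18 (ENSMUSG00000023043) at chr15:102028180-102032027 on the plus strand. These genes encode obligate partners, and 23697 bases separate their annotated ends. Krt7 lies on the same chromosome at chr15:101411043-101430313 (ENSMUSG00000023039) and Krt5 at chr15:101707070-101712898 (ENSMUSG00000061527), while Krt19 (ENSMUSG00000020911, chr11:100140810-100148665) and Krt14 (ENSMUSG00000045545, chr11:100203162-100207548) sit near each other in the type I cluster. Gata3 (ENSMUSG00000015619) lies at chr2:9857078-9890034, Elf5 (ENSMUSG00000027186) at chr2:103411688-103450989, Esr1 (ENSMUSG00000019768) at chr10:4611593-5005614 and Trp63 (ENSMUSG00000022510) at chr16:25683763-25892102. On the other strand Krt8 overlaps Gm36026, Krt7 overlaps Gm671, Krt5 overlaps Gm44323, Trp63 overlaps Gm24928, and Gata3 overlaps Gm13256 and 4930412O13Rik. On the same strand Trp63 overlaps Gm27005 and Gata3 overlaps 9230102O04Rik. Reads of overlapping genes are uncertain, since the strand setting of the counting is not given in the sources used here. The promoters of Krt8 and Krt18 are shown because these genes varied together over the lines, and that of Krt7 because it is the other type II keratin of the luminal set. Each sequence is from RefSeq (GRCm38.p6), runs 5′ to 3′ on the gene's own strand from 250 bases before to 50 after the start annotated there, and has motif matches in capitals. That start differs from the gene coordinates given above, and the whole Krt7 window lies inside those coordinates.
Krt8, chr15:102004293-102004592, minus strand: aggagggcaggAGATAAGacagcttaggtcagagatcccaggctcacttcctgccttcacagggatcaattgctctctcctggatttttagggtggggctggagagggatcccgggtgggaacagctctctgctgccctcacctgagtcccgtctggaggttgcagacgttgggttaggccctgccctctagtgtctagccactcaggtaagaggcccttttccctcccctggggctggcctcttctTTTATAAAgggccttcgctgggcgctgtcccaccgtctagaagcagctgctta
Krt18, chr15:102027966-102028265, plus strand: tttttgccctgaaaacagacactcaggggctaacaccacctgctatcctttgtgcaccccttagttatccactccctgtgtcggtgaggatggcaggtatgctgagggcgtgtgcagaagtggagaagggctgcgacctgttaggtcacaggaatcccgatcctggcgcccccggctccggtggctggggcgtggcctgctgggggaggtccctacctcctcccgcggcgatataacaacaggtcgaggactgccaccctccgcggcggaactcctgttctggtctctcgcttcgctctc
Krt7, chr15:101412153-101412452, plus strand: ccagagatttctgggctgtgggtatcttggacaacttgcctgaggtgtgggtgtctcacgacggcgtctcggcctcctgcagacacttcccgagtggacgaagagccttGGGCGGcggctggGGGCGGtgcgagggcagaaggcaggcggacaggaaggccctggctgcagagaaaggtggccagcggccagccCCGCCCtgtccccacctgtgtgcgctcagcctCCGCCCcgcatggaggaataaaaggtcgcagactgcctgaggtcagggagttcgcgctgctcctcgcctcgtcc
The motifs searched on both strands were the TATA box (TATAAA), the GC box (GGGCGG), the AP-1 motif (TGANTCA), the E-box (CACGTG), an ETS motif (ACCGGAAG) and a GATA motif (AGATAAG). In Krt8 the capitals mark the GATA motif, held by 3.04% of 32851 promoters, and the TATA box, held by 13.6%, which here matches on both strands at overlapping positions. In Krt7 they mark 4 matches to the GC box, found in 35.7% of promoters, and the Krt18 window held none of the 6 motifs. RefSeq promoters were at hand for 8 of the 10 genes, all but Krt19 and Trp63.

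Krt8, the most abundant of the 10 genes, differed 7.76-fold between the highest and the lowest line in control medium. Its level was 797, 784 and 803 CPM in the 3 cultures of MYAZ16.1e, 217, 222 and 219.7 in MYAZ12.3i and 557, 536 and 555 in MYAZ6.6g. Myc310 gave 988, 983 and 968 CPM. Cultures of a line lay close together, and the MYAZ lines and Myc310 did not overlap. In the lung lines the Krt8 level was 864, 883 and 882 CPM in LM1, 1435, 1480.5 and 1448 in LM2 and 1541, 1506 and 1472 in LM3. In the LM-LM lines it was 850.0, 819.8 and 829 CPM in LM1-LM, 869.9, 849 and 881 in LM2-LM and 1703, 1678 and 1731 in LM3-LM. Every lung culture was above every MYAZ culture, and LM2, LM3 and LM3-LM were above Myc310 while LM1, LM1-LM and LM2-LM were below it. In the order of levels, LM2 and LM3 overlapped, as did LM1 with LM2-LM and LM2-LM with LM1-LM.

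Krt18 followed Krt8 at a lower level. Its cultures gave 265, 269.8 and 275 CPM in MYAZ16.1e, 94.0, 101 and 105 in MYAZ12.3i and 154, 146 and 142 in MYAZ6.6g, against 353, 349.7 and 357 in Myc310. Krt18 stood at 226, 235 and 229 CPM in LM1, 451, 482 and 459 in LM2 and 512, 494 and 483 in LM3. The corresponding levels were 201, 186 and 185 CPM in LM1-LM, 284, 283 and 285 in LM2-LM and 545, 550.0 and 544 in LM3-LM. No neighbouring lines overlapped in this order, and MYAZ16.1e lay above LM1 and LM1-LM, so the MYAZ lines and the lung lines were not separate for Krt18 as they were for Krt8. Over the 10 lines, log2 levels of Krt8 and Krt18 had a Pearson r of 0.95 and a Spearman rho of 0.94, a description only, because the 7 lines of the Myc310 lineage share a founder.

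**Figure D1:**
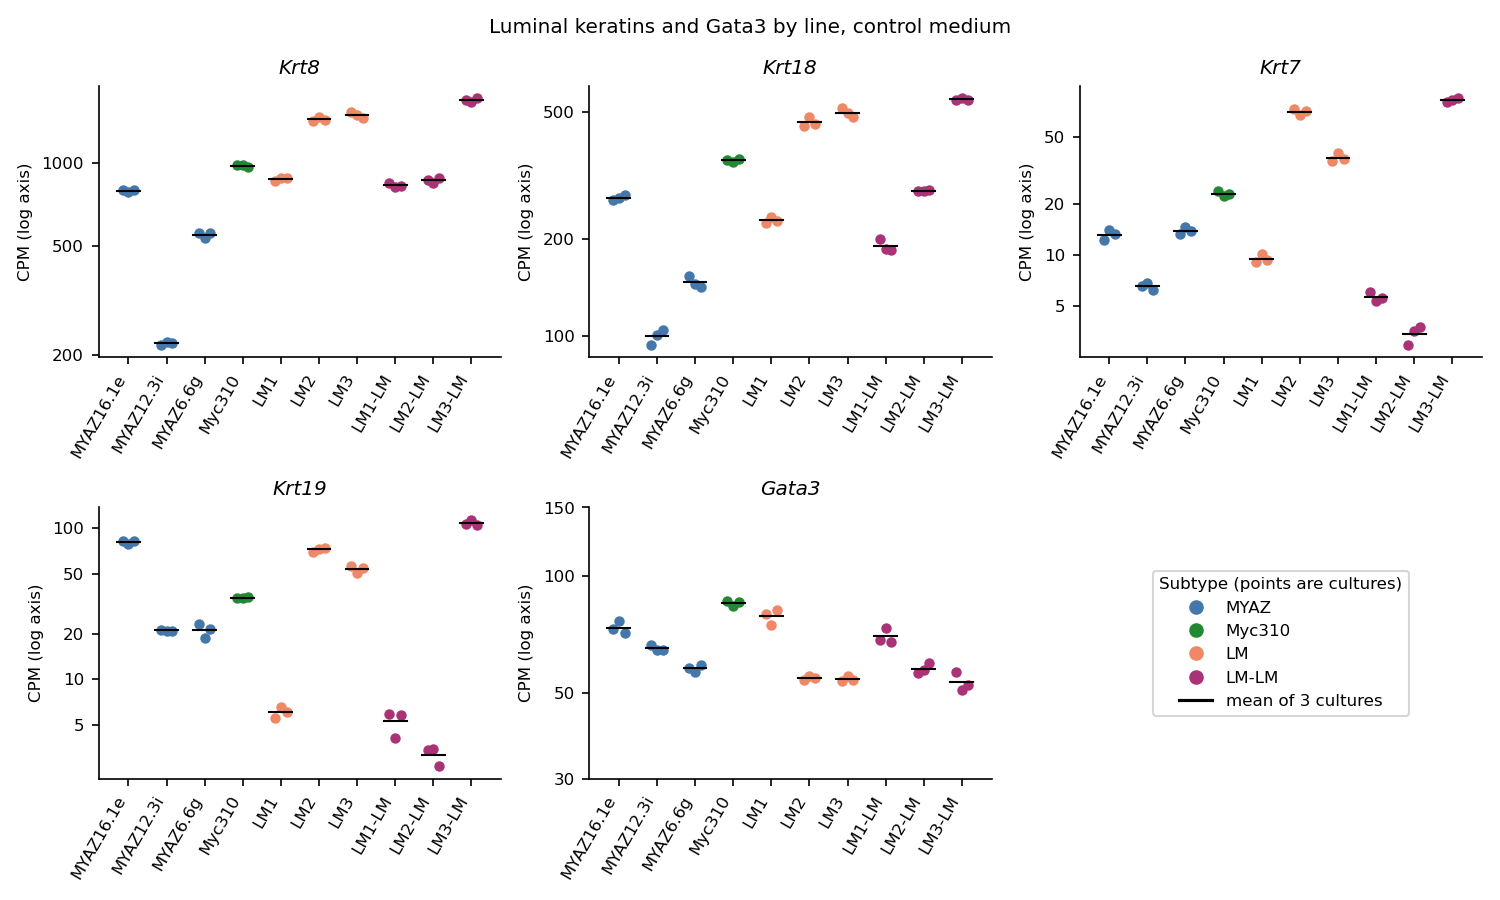
Levels of Krt8, Krt18, Krt7, Krt19 and Gata3 in control medium, in CPM on log axes that differ between panels; each point is a culture, each bar the mean of 3 cultures, and colours give the subtype. Krt7 and Krt19 are low in LM1, LM1-LM and LM2-LM and high in LM2, LM3 and LM3-LM, while the line means of Gata3 stay between 53.2 and 85.0 CPM.

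Per kilobase of transcript, Krt8 exceeded Krt18 in every group, with a ratio between 1.61 ± 0.0762 (SD, n = 3) in MYAZ12.3i and 3.21 ± 0.0875 in LM1-LM control cultures. In Myc310 control cultures the levels per kilobase were 500.4 CPM for Krt8, 246 for Krt18, 26.5 for Gata3, 21.9 for Krt19 and 5.63 for Krt7. The Krt8 level carries a limit of its own, because 26.9% of its distinct 50-base transcript stretches also occur in the processed copy Krt8-ps. That copy itself was assigned between 5 and 96 counts per library, and Krt8 between 4840 and 41357.

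Krt7 and Krt19, the other simple keratin genes of the set, varied far more between lines, 24.1-fold and 34.1-fold from the lowest to the highest. The Krt7 level was 12.32, 14.0 and 13.2 CPM in the cultures of MYAZ16.1e, 6.56, 6.79 and 6.20 in MYAZ12.3i, 13.3, 14.6 and 13.9 in MYAZ6.6g and 23.9, 22.3 and 23.0 in Myc310. LM lines gave 9.02, 10.1 and 9.38 CPM of Krt7 in LM1, 72.7, 67.4 and 71.1 in LM2 and 35.7, 40.3 and 36.8 in LM3. LM-LM lines gave 6.03, 5.32 and 5.60 CPM in LM1-LM, 2.94, 3.55 and 3.77 in LM2-LM and 79.7, 82.7 and 84.3 in LM3-LM. Lines of the same origin were thus far apart, with LM2, LM3 and LM3-LM above Myc310 and LM1, LM1-LM and LM2-LM below it. MYAZ6.6g and MYAZ16.1e overlapped for Krt7, and no other neighbouring lines did.

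Krt19, a type I keratin of luminal and progenitor cells, divided the lung lines in the same way. It stood at 81.9, 78.6 and 82.6 CPM in MYAZ16.1e, 21.2, 21.0 and 21.0 in MYAZ12.3i, 23.2, 18.7 and 21.5 in MYAZ6.6g and 34.4, 34.3 and 35.0 in Myc310. In the LM lines Krt19 was 5.57, 6.55 and 6.05 CPM in LM1, 69.9, 73.0 and 74.3 in LM2 and 55.8, 50.3 and 54.8 in LM3. In the LM-LM lines it was 5.94, 4.11 and 5.83 CPM in LM1-LM, 3.40, 3.46 and 2.66 in LM2-LM and 107, 113 and 105 in LM3-LM. LM1 and LM1-LM overlapped, as did MYAZ6.6g and MYAZ12.3i, and LM2-LM lay below all others. Within the MYAZ lines Krt19 and Krt7 parted, since MYAZ16.1e was the second highest line for Krt19 and only the sixth for Krt7. Over the 10 lines the log2 levels of Krt7 and Krt19 had a Pearson r of 0.85 and a Spearman rho of 0.83, again as a description of related lines.

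**Figure D2:**
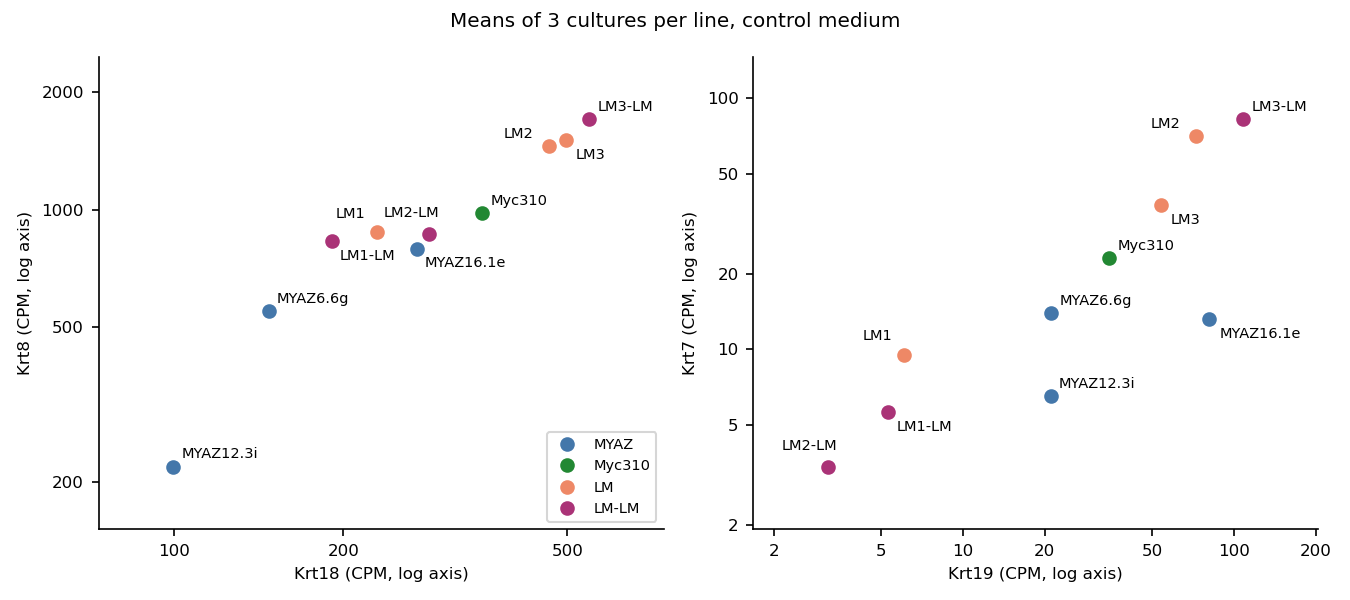
Line means of 3 control cultures in CPM on log axes, with Krt8 against Krt18 on the left and Krt7 against Krt19 on the right; each point is a line, coloured by subtype. The lines rise together from MYAZ12.3i to LM3-LM on the left, while on the right MYAZ16.1e lies below the other lines of similar Krt19 level.

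Gata3 was the most even of the luminal genes. The highest line mean, 85.0 ± 1.19 CPM (SD, n = 3) in Myc310, was 1.60-fold the lowest, 53.2 ± 3.07 in LM3-LM. The cultures read 73.1, 76.4 and 71.1 CPM in MYAZ16.1e, 66.4, 64.4 and 64.4 in MYAZ12.3i and 57.9, 56.5 and 58.8 in MYAZ6.6g. Among the lung lines, Gata3 was 78.6 ± 3.56 CPM in LM1, 54.6 ± 0.554 in LM2, 54.2 ± 0.748 in LM3, 69.8 ± 3.28 in LM1-LM and 57.7 ± 1.71 in LM2-LM. LM1 and LM1-LM, low in Krt7 and Krt19, were among the 4 highest lines for Gata3, but LM2-LM, the lowest line for both keratins, was only the seventh and overlapped MYAZ6.6g. LM2, LM3 and LM3-LM, high in both keratins, were the lowest for Gata3, overlapping LM2 with LM3 and LM3 with LM3-LM.

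The hormone receptor and the basal genes had few counts, at most 48 in a control library. Esr1 had 48, 44 and 44 counts in the control cultures of MYAZ12.3i and 35, 37 and 27 in MYAZ6.6g, but 2, 0 and 5 in MYAZ16.1e. Myc310 had 7, 8 and 0 Esr1 counts, LM1 3, 0 and 0, LM2 6, 7 and 13 and LM3 6, 7 and 6. LM1-LM had no Esr1 count in any of 3 cultures, LM2-LM had 2, 4 and 0 and LM3-LM 5, 2 and 4. Esr1 therefore separated MYAZ12.3i and MYAZ6.6g from the rest, and MYAZ16.1e fell among the lines of the Myc310 lineage. Elf5 had 1 count in all, in 1 deprived LM1-LM culture, and none in the other 44 libraries.

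Krt14 was counted in every MYAZ culture at low numbers, 10, 4 and 7 in MYAZ16.1e, 9, 12 and 6 in MYAZ12.3i and 14, 10 and 17 in MYAZ6.6g. In the Myc310 lineage Krt14 never passed 4 counts in a control culture, with 2 counts in Myc310 over 3 cultures, 9 in the LM lines over 9 and 3 in the LM-LM lines over 9, all of the latter in LM1-LM. Trp63, which basal cells require, had 6, 7 and 7 counts in MYAZ16.1e, 7, 6 and 8 in MYAZ12.3i and 15, 8 and 11 in MYAZ6.6g. It had 1 count in LM1 and none in the other control cultures of the Myc310 lineage. Krt5, the partner of Krt14, had 30 counts over 18 of the 45 libraries, with at most 3 in a control culture. There were 6 counts in the 9 MYAZ cultures and 8 in the 9 LM cultures.

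**Figure D3:**
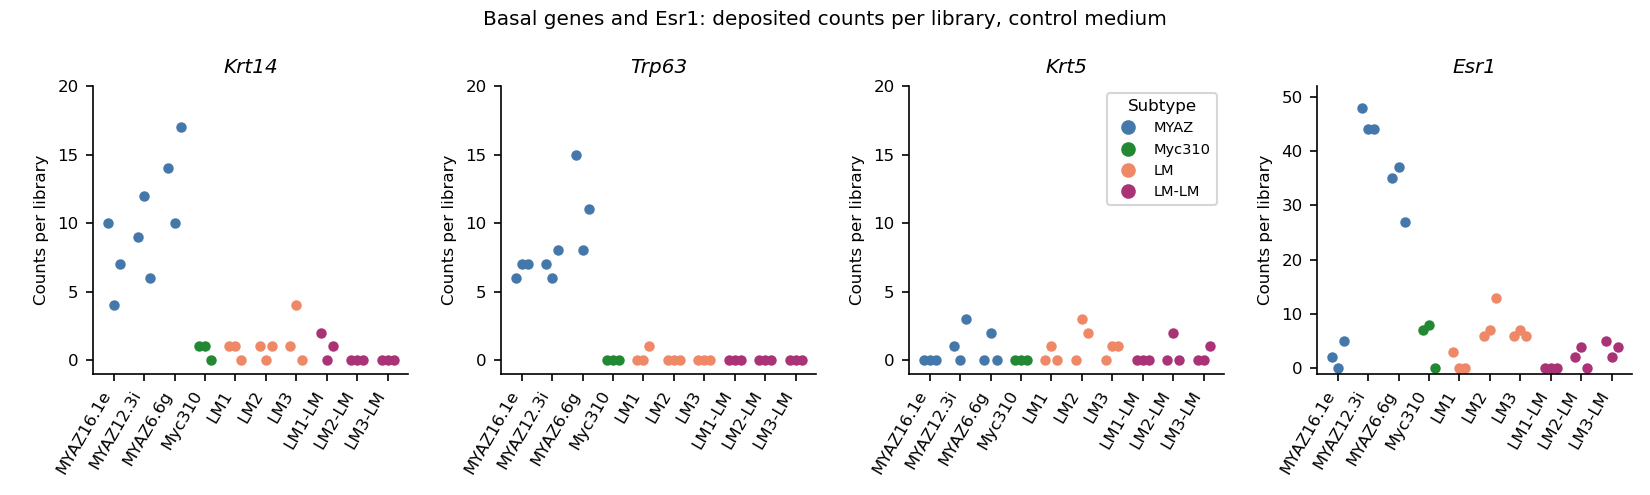
Deposited counts per library of Krt14, Trp63, Krt5 and Esr1 in control medium; each point is a culture, colours give the subtype, and the axis of Esr1 reaches higher than the others. Krt14 and Trp63 have 4 or more counts in every MYAZ culture, where no culture of the Myc310 lineage has more than 4 of Krt14 or 1 of Trp63.

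Relative to depth, the MYAZ cultures had 9.64 times the Krt14 counts of the LM cultures (95% exact interval 4.86 to 21.8) and 30.3 times those of the LM-LM cultures (10.1 to 150). The ratio to Myc310 was 14.7 (3.94 to 123). For Trp63, 75 counts in the MYAZ cultures stood against 1 in LM, a ratio of 73.1 (12.7 to 2926). Against Myc310 and LM-LM, where Trp63 had no count, the MYAZ level was at least 8.23-fold and at least 25.6-fold higher, taking 3 counts over the group as the floor. These intervals cover counting error only. Shared sequence limits Krt14 and Krt5, because 13.9% of the 50-base stretches of Krt14 also occur in Krt16 or Krt17, and 8.52% of those of Krt5 occur in Krt6a, Krt6b or related genes. Line means of Krt16 ran from 1.25 to 2.45 CPM in MYAZ, 0.0172 to 0.0859 in LM and 0 to 0.134 in LM-LM. Those of Krt17 ran from 0.125 to 2.09 CPM in MYAZ and 0 to 0.0815 in LM, with no count in LM-LM, and the share of Krt14 counts that belong to them was not tested.

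The subtype comparison asked how the lung lines and Myc310 differ from the primary MYAZ tumour lines. It was fitted to the 30 control libraries with edgeR's quasi-likelihood test and Benjamini-Hochberg (BH) adjustment over 13795 genes, and a gene was called at an adjusted p under 0.05. Low counts kept Krt5, Trp63 and Elf5 out of the fit, so 7 of the 10 genes were tested. In LM against MYAZ, 5 of the 7 were called, beside 60.8% of all genes tested (30.3% higher, 30.5% lower). Krt8, Krt18 and Krt7 were higher in LM and Krt14 and Esr1 lower. The log2 fold change of Krt8 was 1.30 ± 0.26 (SE; edgeR adjusted p = 6.62e-05), that of Krt18 1.21 ± 0.27 (edgeR adjusted p = 0.000274) and that of Krt7 1.82 ± 0.63 (edgeR adjusted p = 0.0139). Krt14 differed by -3.13 ± 0.51 (edgeR adjusted p = 4.26e-06) and Esr1 by -2.26 ± 0.68 (edgeR adjusted p = 0.00476). In every comparison with MYAZ, these genes passed the low-count filter through MYAZ cultures, where they are high. Their tests are thus not independent of the filter. Krt19 at 0.12 ± 0.71 and Gata3 at -0.070 ± 0.087 did not pass the test.

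With the counts of the 3 cultures summed per line, 3 lines stood against 3 and only Krt14 and Trp63 passed in LM against MYAZ, beside 23.6% of 16017 genes. The LM and LM-LM lines share the founder Myc310, so no test over lines against MYAZ can tell that founder from the subtype. Krt14 and Trp63 passed the low-count filter through MYAZ, where they had 89 and 75 counts, against 9 and 1 in LM. The filter thus depends on the difference tested. The edgeR adjusted p with line sums was 0.0261 for Krt14 and 0.00685 for Trp63, and 0.0772 for Krt8, 0.108 for Krt18, 0.289 for Krt7 and 0.197 for Esr1. An exact two-sided permutation test of the line means gave p = 0.1 for Krt8, Krt14 and Trp63, whose lines did not overlap, and 0.1 is the smallest p that 3 lines against 3 allow. The same exact test gave p = 0.2 for Krt18, 0.3 for Krt7, 0.3 for Esr1, 0.8 for Krt19 and 0.8 for Gata3. The call of Krt7 was also lost without LM2, at a log2 fold change of 1.08 (edgeR adjusted p = 0.178), without MYAZ12.3i, at 1.54 (edgeR adjusted p = 0.0799), and without any 1 of the 3 culture numbers, at edgeR adjusted p from 0.0546 to 0.0614. The call of Esr1 was lost without MYAZ12.3i, at -1.66 (edgeR adjusted p = 0.0591), and without culture 1 of every line, at -2.18 (edgeR adjusted p = 0.0552). Without LM1, Gata3 was called lower in LM, at a log2 fold change of -0.25 (edgeR adjusted p = 0.00389).

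In LM-LM against MYAZ, 5 of 7 genes were again called, beside 62.8% of all genes tested (30.5% higher, 32.3% lower). These were Krt8 at 1.11 ± 0.25 (edgeR adjusted p = 0.000391), Krt18 at 0.97 ± 0.27 (0.00233), Krt7 at 1.43 ± 0.63 (0.0471), Esr1 at -3.75 ± 0.76 (9.35e-05) and Krt14, for which the count ratio above stands in place of a fitted fold. The Krt7 value rested on LM3-LM. Without that line its log2 fold change was -1.33 (edgeR adjusted p = 0.00793), lower in LM-LM in place of higher. The call was also lost without MYAZ12.3i (1.16, edgeR adjusted p = 0.180), MYAZ16.1e (1.56, 0.0754) or MYAZ6.6g (1.62, 0.0726) and without any 1 culture number (edgeR adjusted p from 0.116 to 0.134). Without LM3-LM, Krt19 was also called lower, at -3.30 (edgeR adjusted p = 4.28e-05), against -0.082 ± 0.71 with it, and Krt18 fell short, at 0.44 (edgeR adjusted p = 0.128). The exact two-sided permutation test of the line means gave p = 0.1 for Krt8, Krt14 and Trp63, whose lines did not overlap, 0.2 for Krt18 and Esr1, 0.4 for Gata3, 0.5 for Krt19 and 1 for Krt7, and with 3 lines a subtype it cannot go below 0.1. The mean of the log2 levels over lines differed by 0.14 for Krt7 and by -1.43 for Krt19, against fitted log2 fold changes of 1.43 and -0.082. Gata3 stood at -0.14 ± 0.087 and was not called. It was called lower without LM1-LM (-0.25, edgeR adjusted p = 0.0188) or without MYAZ6.6g (-0.22, edgeR adjusted p = 0.0475). With line sums, Krt14 (edgeR adjusted p = 0.00851) and Trp63 (0.00415) passed, beside 26.4% of genes, while Krt8 (0.111), Krt18 (0.170), Krt7 (0.386) and Esr1 (0.0612) did not. Krt14 and Trp63, with 3 and 0 counts in LM-LM, again entered that fit through the MYAZ lines.

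Myc310 is a single line, so its comparison with MYAZ cannot tell the line from the subtype. Here 4 of 7 genes were called, beside 50.9% of all genes tested (23.8% higher, 27.1% lower), namely Krt8 at 0.91 ± 0.34 (edgeR adjusted p = 0.0268), Krt18 at 1.03 ± 0.35 (0.0163), Gata3 at 0.37 ± 0.12 (0.0109) and Krt14, lower. With line sums none of the 8 genes tested passed, beside 8.92% of all genes, at edgeR adjusted p of 0.387 for Krt8, 0.347 for Krt18, 0.298 for Gata3 and 0.0512 for Trp63. Krt8 and Krt18 also lost the call without MYAZ12.3i, at 0.54 (edgeR adjusted p = 0.0987) and 0.76 (edgeR adjusted p = 0.0855), and Krt18 and Gata3 without MYAZ6.6g, at 0.93 (edgeR adjusted p = 0.0584) and 0.29 (edgeR adjusted p = 0.0611). Leaving out a culture number removed the calls of Krt8 and Krt18 for all 3 numbers (edgeR adjusted p from 0.0664 to 0.100) and that of Gata3 for numbers 1 and 3 (0.0616 and 0.0682). Without MYAZ16.1e, Esr1 was called lower in Myc310, at -2.94 (edgeR adjusted p = 0.00488).

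Within the Myc310 lineage few differences passed. In LM against Myc310 the only gene of the 7 called was Gata3, lower in LM at -0.44 ± 0.12 (edgeR adjusted p = 0.0262), beside 4.94% of all genes tested. That call was lost with line sums (edgeR adjusted p = 1.00, beside 0.0125% of genes), without LM2 (-0.36, edgeR adjusted p = 0.108), without LM3 (-0.36, edgeR adjusted p = 0.144) and without any 1 culture number. In LM-LM against LM none of the 7 was called by edgeR, beside 0.768% of all genes, none had an unadjusted p under 0.05, and DESeq2 called 0. The log2 fold changes there were -0.19 ± 0.25 for Krt8, -0.24 ± 0.26 for Krt18, -0.38 ± 0.61 for Krt7 and -0.20 ± 0.71 for Krt19. Without LM3-LM, 2063 of 13750 genes were called in place of 106 of 13795, 1372 of them lower, and 3 of the 7 were among the lower, Krt7 at -3.15 (edgeR adjusted p = 7.42e-05), Krt19 at -3.42 (edgeR adjusted p = 0.000699) and Krt18 at -0.77 (edgeR adjusted p = 0.0403). These comparisons share their MYAZ, Myc310 or LM libraries and are not independent of each other.

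Most other luminal genes were near 0. Of 22 other luminal genes, 17 stayed under 1 CPM in all 45 libraries. Epcam, the epithelial adhesion molecule, reached at most 0.802 CPM and Cdh1, E-cadherin, at most 0.284. The tight junction genes Cldn3, Cldn4 and Cldn7 reached at most 0.340, 0.140 and 0.0475 CPM, and Kit, a receptor of luminal progenitors, had no count in any library. Vim, the intermediate filament gene of mesenchymal and some basal cells, stood between 2586 and 4351 CPM. Krt8, Krt18 and Gata3 were thus read at high levels in lines where the adhesion and junction genes that define epithelium were near 0.

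**Figure D4:**
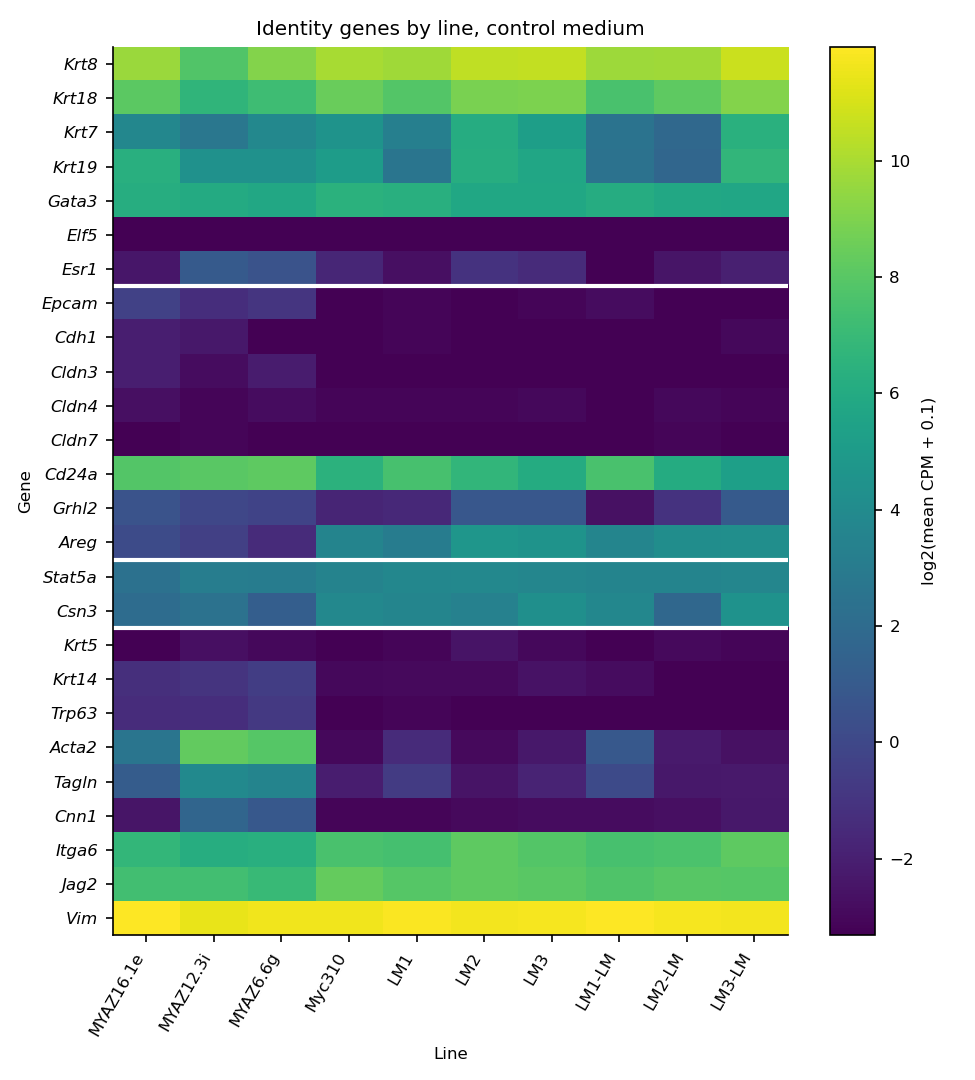
Line means in control medium as log2(CPM + 0.1) on a colour scale, for 26 luminal, milk and basal genes in rows and 10 lines in columns; white lines separate the luminal genes of the set, other luminal genes, milk genes and basal genes. Krt8, Krt18, Gata3 and Vim are bright in all columns, Epcam, Cdh1 and the claudin genes dark, and Acta2 is bright only in MYAZ12.3i and MYAZ6.6g, with 5.97 CPM in MYAZ16.1e.

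In LM against MYAZ, 6 of the 22 other luminal genes were tested, of which 1 was higher and 4 lower. The higher gene was Areg, an EGF receptor ligand of the oestrogen response, at a log2 fold change of 4.90 ± 0.31 (edgeR adjusted p with line sums 0.00104), while Cd24a, a luminal surface antigen, was lower at -1.13 ± 0.29 (line sums 0.173). Of 12 milk and alveolar genes, 7 were in the table and 4 tested, with 3 higher and 0 lower. These were the casein Csn3 at 1.82 ± 0.34 (line sums 0.0623) and the prolactin-pathway factors Stat5a at 0.86 ± 0.11 (line sums 0.0181) and Stat5b at 0.30 ± 0.056 (line sums 0.0577). Of 19 other basal genes, 12 were tested, with 3 higher and 8 lower. The median log2 fold change was -1.28 for the tested luminal genes, 0.58 for the milk genes and -2.46 for the basal genes, and 0.0023 over all genes tested. LM-LM and Myc310 against MYAZ gave the same numbers higher and lower in each of these lists, and these stand beside 60.8%, 62.8% and 50.9% of all genes called in LM, LM-LM and Myc310. Among the genes tested over cultures, fewer passed with line sums. Of the other basal genes 3 were then higher and 6 lower in LM and in LM-LM, and 1 and 2 in Myc310. Of the other luminal genes 1 was higher and 2 lower in LM and in LM-LM, and 1 and 0 in Myc310, while 1 milk gene was higher and 0 lower in each. Genes that only the line sums could test are not in these counts.

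The basal genes moved both ways. Acta2, smooth muscle actin of myoepithelial cells, was at 311 CPM in MYAZ12.3i and 246 in MYAZ6.6g, but 5.97 in MYAZ16.1e and at most 1.71 in any line mean of the Myc310 lineage. Its log2 fold change was -10.52 ± 1.02 in LM and -8.26 ± 0.85 in LM-LM (edgeR adjusted p with line sums 0.00566 and 0.00787). Tagln, another contractile gene, was lower at -5.22 ± 0.68 and -4.67 ± 0.65 (line sums 0.0177 and 0.0222). Mylk, the myosin light chain kinase, was lower at -0.67 ± 0.20 and -0.99 ± 0.20, but not with line sums (0.234 and 0.0862). The integrin gene Itga6 was higher by 1.41 ± 0.14 and 1.33 ± 0.14 (line sums 0.00549 and 0.00625), and the Notch ligand Jag2 by 0.84 ± 0.062 and 0.68 ± 0.062 (line sums 0.00192 and 0.00433). Acta2 and Tagln were thus lower in the lung lines than in MYAZ whether cultures or lines were counted, and Itga6 and Jag2 higher.

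Markers of other cells were measured beside these genes because the lung lines were grown from bulk lung. The summed level of 10 fibroblast markers ran from 7.46 to 98.4 CPM in the MYAZ libraries, 1.73 to 2.16 in Myc310, 15.1 to 124.5 in LM and 34.1 to 217 in LM-LM. Col3a1 made up most of it in the lung lines, at 199 CPM in LM3-LM and 109 in LM3, while Col1a1 was at most 3.92 CPM, Lum was at most 0.0452 and Fap had no count in any library. Of the 5 fibroblast markers tested against MYAZ, 1 was higher and 3 lower in LM, 1 higher and 4 lower in LM-LM, and 0 higher and 4 lower in Myc310. With line sums 0 were higher and 2 lower for LM and LM-LM, and none was called for Myc310. Their median log2 fold change was -2.61 in LM against MYAZ, beside 0.0023 over all genes tested. In LM against Myc310 the median was 3.03, beside 0.0055, with 1 marker called higher and 0 lower, beside 4.94% of all genes. With line sums that call was lost. Line means of Col3a1 were 0.469 CPM in Myc310 and 12.9 to 109 in LM. The line means of Col1a1 ran from 0.988 to 2.70 CPM in MYAZ, 0.124 to 0.474 in LM and 0.0394 to 0.449 in LM-LM. Of the 10 leukocyte markers, 7 were in the table and their sum, nearly all Cd14 and Cd68, ran from 17.7 to 39.0 CPM in the MYAZ libraries, 41.2 to 43.2 in Myc310, 30.4 to 49.8 in LM and 31.9 to 53.4 in LM-LM, and up to 70.8 in deprived cultures, with Ptprc at most 0.233 and Lyz2 at most 0.0419. Of the leukocyte markers 3 were tested, and all 3 were called higher in LM and in Myc310 against MYAZ and 2 in LM-LM (with line sums 2, 1 and 2). Cd68, a macrophage lysosomal protein, had line means of 4.66 to 5.78 CPM in MYAZ, 9.002 to 16.11 in LM and 12.6 to 16.7 in LM-LM. Endothelial markers (8 of 10 in the table) summed to 3.76 to 7.24 CPM in MYAZ, 0.907 to 1.28 in Myc310, 0.375 to 1.37 in LM and 0.431 to 1.11 in LM-LM. Kdr, the VEGF receptor, carried most of that difference, with line means of 4.09 to 6.26 CPM in MYAZ and at most 0.0946 in LM and 0.0933 in LM-LM, and 1 endothelial marker of 3 tested was called lower in LM and in LM-LM, also with line sums, while 2 and 1 were called higher and 0 with line sums. In Myc310 1 was called lower, also with line sums, and 2 higher, 0 with line sums. Of the lung alveolar markers 2 were tested and 0 were higher, while 2 were lower in Myc310 and 1 was lower in each of LM and LM-LM, 0 of them with line sums. These calls stand beside 60.8% of all genes called for LM, 62.8% for LM-LM and 50.9% for Myc310. The summed level of lung alveolar markers (6 of 8) was at most 6.63 CPM, with Sftpb at most 0.0764 and Sftpc at most 0.0758. Lum, Fap, Ptprc, Lyz2, Sftpb and Sftpc were thus at or near 0, but other markers of the fibroblast list were not. Pdgfra stood at 48.3 CPM in MYAZ12.3i, 6.64 in MYAZ6.6g and 6.78 in MYAZ16.1e, and between 1.08 in Myc310 and 20.5 in LM2 over the Myc310 lineage. Pdgfrb stood at 33.4 CPM in MYAZ12.3i and 22.5 in MYAZ6.6g, the lines with the highest Acta2, against 0.534 in MYAZ16.1e and at most 1.13 in a line mean of the Myc310 lineage. The part of all these markers of other cells in any difference of the keratins or of the basal genes was not tested.

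Genes whose line means followed the set most closely were named for each gene tested, by Pearson r of log2 CPM over the 10 lines, among 10601 genes. They describe likeness over related lines and nothing more. For Krt8 they were C77080 (r = 0.99), Shf (0.98) and Pef1 (0.97), for Krt18 Septin8, Bcar3 and Rundc3a (0.97 each), and for Krt7 Nyap1 (0.97), Tada3 (0.96) and Thra (0.94). Krt19 was most like Aspa and Il17rc (0.97 each) and Arhgef5 (0.95), and Gata3 most like Ahcyl2 (0.95), Fn3krp (0.94) and Tmco4 (0.92). Krt14 and Esr1 had low counts and were compared with 10602 genes. The nearest were Lzts3, Tnks1bp1 and Tpmt (0.98 each) for Krt14, and Spred1 (0.98), Zfp217 (0.97) and Usp54 (0.96) for Esr1.

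The deprivation experiment asked how the same genes respond to 6 h without cysteine and cystine. Krt8, Krt18, Krt19 and Gata3 rose in all 4 lines tested (MYAZ16.1e, Myc310 and the lung lines LM1 and LM1-LM), by less than 1 on the log2 scale, and Krt7 fell in LM1 and LM1-LM. The 24 libraries of these 4 lines were fitted together over 13400 genes, and 6 of the 10 genes were tested, all but Krt5, Trp63, Elf5 and Esr1. In MYAZ16.1e 5 were called, beside 53.7% of all genes tested (26.6% higher, 27.1% lower). For Myc310 the number was 4, beside 66.8% (32.8% higher, 33.9% lower). LM1 had 5, beside 71.1% (35.8% higher, 35.3% lower), and LM1-LM had 5, beside 72.4% (36.5% higher, 35.9% lower). Most genes therefore passed in each line, and these counts do not set the 6 genes apart from the rest.

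Krt8 rose from 797, 784 and 803 CPM in control to 954, 987 and 984 in deprived cultures of MYAZ16.1e, a log2 fold change of 0.29 ± 0.021 (edgeR adjusted p = 7.61e-13). Deprived Krt8 levels were 1125, 1129 and 1156 CPM in Myc310, 1079.7, 1077 and 1108 in LM1 and 1059, 1069.6 and 1059 in LM1-LM. In no line did deprived and control cultures overlap, with log2 fold changes of 0.20 ± 0.021, 0.35 ± 0.021 and 0.39 ± 0.021 (edgeR adjusted p = 8.53e-10, 2.37e-15 and 1.36e-16). Its partner Krt18 reached 289, 296 and 284 CPM in deprived MYAZ16.1e and 398, 397 and 399.7 in Myc310, 0.095 ± 0.029 and 0.16 ± 0.028 on the log2 scale (edgeR adjusted p = 0.00614 and 1.06e-05). In LM1 it reached 287, 297 and 295 CPM and in LM1-LM 268, 267 and 249, 0.39 ± 0.029 and 0.49 ± 0.030 (edgeR adjusted p = 4.92e-13 and 1.67e-15). Control and deprived cultures did not overlap for Krt18 either. The call of Krt18 in MYAZ16.1e was lost without control culture 1 or without deprived culture 2, at 0.08 each (edgeR adjusted p = 0.0507 and 0.0508).

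Krt19 rose in Myc310, where control cultures at 34.4, 34.3 and 35.0 CPM stood against deprived cultures at 58.0, 57.4 and 59.2, a log2 fold change of 0.74 ± 0.055 (edgeR adjusted p = 4.11e-13). In LM1 it went from 5.57, 6.55 and 6.05 CPM to 9.06, 10.1 and 9.70, 0.70 ± 0.097 on the log2 scale (edgeR adjusted p = 1.66e-07). MYAZ16.1e rose to 96.5, 103 and 107 CPM, by 0.33 ± 0.049 (edgeR adjusted p = 1.05e-06). LM1-LM went to 6.65, 6.30 and 5.97 CPM, by 0.30 ± 0.11 (edgeR adjusted p = 0.0120), but its control culture 2 was low at 4.11 CPM and its highest control culture, at 5.94, lay just under its lowest deprived culture, at 5.97. Deprived and control cultures were thus separate in all 4 lines, in LM1-LM by a narrow margin. Without control culture 2 the value in LM1-LM was 0.14 (edgeR adjusted p = 0.277), and without deprived culture 1 it was 0.25 (edgeR adjusted p = 0.0715). Upper-quartile scaling gave 0.22 (edgeR adjusted p = 0.0646), and a fit of the LM1-LM libraries alone 0.29 (0.0879).

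Krt7 went the other way in the lung lines. It was 7.06, 6.39 and 5.89 CPM in deprived LM1 against 9.02, 10.1 and 9.38 in control, a log2 fold change of -0.53 ± 0.11 (edgeR adjusted p = 0.000117). In LM1-LM it was 4.20, 3.53 and 2.44 CPM against 6.03, 5.32 and 5.60, -0.68 ± 0.13 (edgeR adjusted p = 3.86e-05). Deprived cultures of both lines lay wholly below their controls. MYAZ16.1e gave 12.28, 11.9 and 13.4 CPM and Myc310 23.2, 22.0 and 25.3, overlapping their controls, at -0.079 ± 0.097 and 0.015 ± 0.086 (edgeR adjusted p = 0.530 and 0.898). The ratio of Krt7 to Krt19 per kilobase was lower in deprived cultures of all 4 lines, where Krt19 rose. It went from 0.605 ± 0.0162 (SD, n = 3) to 0.259 ± 0.0358 in LM1. For LM1-LM the ratio was 0.419 ± 0.0687 in control and 0.206 ± 0.0437 in deprived cultures. In Myc310 it went from 0.257 ± 0.00932 to 0.155 ± 0.00861, and in MYAZ16.1e from 0.0627 ± 0.00535 to 0.0472 ± 0.00249.

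**Figure D5:**
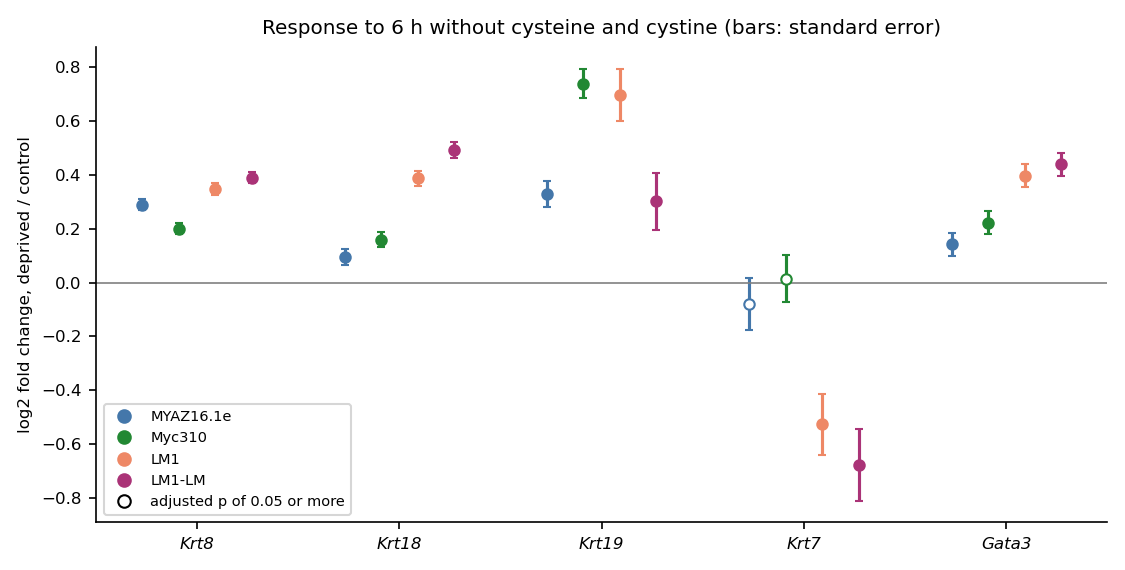
Log2 fold change of deprived over control cultures for Krt8, Krt18, Krt19, Krt7 and Gata3 in 4 lines; points are edgeR estimates, bars their standard errors, and open points have an adjusted p of 0.05 or more. Krt7 lies below 0 in LM1 and LM1-LM and near 0 in MYAZ16.1e and Myc310, and the other 4 genes lie above 0 in all 4 lines.

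Gata3 rose by 0.44 ± 0.043 on the log2 scale in LM1-LM (edgeR adjusted p = 1.37e-10) and by 0.40 ± 0.043 in LM1 (1.10e-09). The increase was 0.22 ± 0.042 in Myc310 (edgeR adjusted p = 2.54e-05) and 0.14 ± 0.043 in MYAZ16.1e (0.00592). Deprived cultures of LM1-LM read 88.7, 97.4 and 91.1 CPM and those of LM1 98.9, 105 and 99.1, while Myc310 gave 100.3, 99.5 and 101 CPM and MYAZ16.1e 78.7, 79.0 and 86.2. All lay above the controls of their line. In MYAZ16.1e the call was lost without control culture 3 (0.11, edgeR adjusted p = 0.054) or deprived culture 3 (0.09, edgeR adjusted p = 0.111).

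Among the basal genes, Krt14 in MYAZ16.1e was at 17, 24 and 16 counts in deprived cultures against 10, 4 and 7 in control, a log2 fold change of 1.48 ± 0.53 (edgeR adjusted p = 0.0189). All deprived cultures were above the controls, with a count ratio of 2.87 (95% exact interval 1.72 to 4.99, counting error only). Krt14 passed the low-count filter through these deprived cultures. The call was lost without control culture 2 (1.24, edgeR adjusted p = 0.087), control culture 3 (1.30, edgeR adjusted p = 0.087) or deprived culture 2 (1.22, edgeR adjusted p = 0.0985), with DESeq2 (adjusted p = 0.0806) and without the filter on low counts (edgeR adjusted p = 0.0867). Krt16, which shares sequence with Krt14, rose in the same cultures from between 24 and 40 counts to between 165 and 185, at a log2 fold change of 2.64 ± 0.23, and its part in the Krt14 counts was not tested. Trp63 had 2, 6 and 4 counts in deprived MYAZ16.1e against 6, 7 and 7 in control, a ratio of 0.635 (0.283 to 1.36). It had none in the deprived cultures of the other 3 lines. In the wider gene lists the calls went both ways. Of 10 other basal genes tested, 3 rose and 2 fell in MYAZ16.1e, 3 and 3 in Myc310, and 4 and 2 in each of LM1 and LM1-LM, while of 7 other luminal genes no more than 2 passed in either direction in any line. Of 5 milk and alveolar genes tested, 1 rose and 1 fell in MYAZ16.1e, 2 and 2 in Myc310, 2 and 2 in LM1, and 3 and 2 in LM1-LM. Of 3 leukocyte markers 1 rose in MYAZ16.1e, 2 in each other line and 0 fell. Of 5 fibroblast markers 1 rose in each line, and 2 fell in LM1 and in LM1-LM. Of 2 lung alveolar markers 1 fell in MYAZ16.1e, LM1 and LM1-LM, and of 2 endothelial markers 1 fell in Myc310. The part of these markers in the changes of the set was not tested. All these counts are read against the 53.7% to 72.4% of all genes called in the 4 lines. Krt5 had at most 5 counts in any deprived culture, in 1 culture of LM1-LM.

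Whether the response differed between lines was tested as the difference of each line's response from that of MYAZ16.1e, whose libraries are shared by the 3 tests. Called were 2 of 6 genes for Myc310, 4 for LM1 and 4 for LM1-LM, beside 40.3%, 52.2% and 54.8% of all genes tested. Krt18 responded more in LM1, by 0.29 ± 0.041 (edgeR adjusted p = 4.98e-07), and in LM1-LM, by 0.40 ± 0.041 (edgeR adjusted p = 1.40e-09). Gata3 also responded more, by 0.25 ± 0.061 in LM1 (edgeR adjusted p = 0.000694) and 0.30 ± 0.061 in LM1-LM (edgeR adjusted p = 0.000111). The sizes for Krt18 and Gata3 depend on the TMM factors and were smaller by depth alone. By depth alone, 95% counting intervals of Gata3 were 72.4 to 76.5 CPM in control and 81.7 to 86.1 in deprived MYAZ16.1e. In LM1 they were 75.7 to 80.1 and 92.3 to 96.9, and in LM1-LM 67.2 to 71.2 and 83.2 to 87.5. The difference for Krt7 was -0.45 ± 0.15 in LM1 (edgeR adjusted p = 0.0117) and -0.60 ± 0.16 in LM1-LM (edgeR adjusted p = 0.00260). With 1 line per subtype in this experiment, the line and the subtype cannot be told apart.

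In MYAZ12.3i cells with NDI1, Krt8 and Krt19 were higher than in MYAZ12.3i, and the other genes tested did not pass. Krt5, Krt14, Trp63 and Elf5 were not tested there. Krt8 was at 241, 245 and 238 CPM against 217, 222 and 219.7, a log2 fold change of 0.13 ± 0.026 (edgeR adjusted p = 0.00292). Krt19 was at 28.0, 29.3 and 25.7 CPM against 21.2, 21.0 and 21.0, 0.39 ± 0.063 on the log2 scale (edgeR adjusted p = 0.000786). In both genes the cultures were separate. These were 2 of 6 genes tested, beside 17.4% of 12841 genes. Krt18 at -0.018 ± 0.041, Krt7 at 0.0051 ± 0.11, Gata3 at -0.080 ± 0.042 and Esr1 at -0.63 ± 0.25 (edgeR adjusted p = 0.102) were not called. Krt14 had 8, 9 and 24 counts and Trp63 2, 7 and 12, ranges that overlap those of MYAZ12.3i. A vector control or a second NDI1 line was not analysed here, so the NDI1 line and its transgene cannot be told apart.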

How the data were processed

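Polyadenylated RNA was sequenced with a directional kit. Reads went through the nf-core RNAseq pipeline, with STAR alignment to GRCm38 and RSEM quantification, and the authors deposited raw gene counts as whole numbers, without normalization. The annotation release and the strand setting are not given in the sources used here. The submitters' processing notes also name DESeq2 1.38.3 and R 4.2.2. Counts were used as deposited, in R 4.3.3 with edgeR 4.0.16 (TMM, filterByExpr, quasi-likelihood test with Benjamini-Hochberg adjustment over all genes tested, threshold 0.05), limma 3.58.1 and, as an alternative, DESeq2 1.42.0. Separate fits held the 30 control libraries by subtype, the 24 libraries of the deprivation experiment in 8 groups, and the 6 libraries of MYAZ12.3i with and without NDI1. Log2 CPM used a prior count of 2. No fitted fold was reported for a gene with 3 counts or fewer over a group. Levels per kilobase used the annotated principal transcript of GENCODE M21, and gene coordinates are from the same annotation, in which 28407 of 28454 identifiers were found. Krt7 has an annotated transcript of 4094 bases, against 1958 for Krt8, and its level per kilobase depends on that length.

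The 10 genes and all gene lists were chosen with earlier results of these data known. Named from the lists were, per comparison with MYAZ, up to 3 genes with the largest increase and 3 with the largest decrease per list among called genes of mean log2 CPM of at least 1, and for each gene tested the 3 genes most like it over the lines. Code was tested on simulated data. All 45 replicate pairs differed by more than sampling noise. Same-numbered control and deprived cultures had correlations of their deviations from -0.39 to 0.30 (12 pairs), with 0.30, 0.083 and 0.072 in MYAZ16.1e. With 3 cultures per group these values cannot exclude a pairing by replicate number. The labels do not describe one, and the main fits used none. Alternatives were RLE and upper-quartile scaling, other filters on low counts, a replicate block, DESeq2, counts summed per line, limma voom with line as a random effect, fits of only the libraries compared, and leaving out each culture or line.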

Additional observations from a re-analysis of the deposited data

Results flagged for a closer look

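Responses to deprivation that differed from that of MYAZ16.1e by the test of the difference (edgeR, TMM scaling, quasi-likelihood, BH adjustment, 3 cultures per group) were found for 5 of the genes. Of all genes tested, 40.3%, 52.2% and 54.8% were called for Myc310, LM1 and LM1-LM, so these calls do not set the genes apart. Krt7 differed by -0.45 ± 0.15 on the log2 scale in LM1 (edgeR adjusted p = 0.0117) and by -0.60 ± 0.16 in LM1-LM (edgeR adjusted p = 0.00260), where it fell and MYAZ16.1e showed no called change. Krt18 differed by 0.29 ± 0.041 in LM1 and 0.40 ± 0.041 in LM1-LM, and Gata3 by 0.25 ± 0.061 and 0.30 ± 0.061, all toward a larger increase in the lung lines.

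Krt19 differed by 0.41 ± 0.073 in Myc310 (edgeR adjusted p = 3.58e-05) and by 0.37 ± 0.11 in LM1 (edgeR adjusted p = 0.00499). Krt8 differed by -0.089 ± 0.030 in Myc310 (edgeR adjusted p = 0.0171) and by 0.10 ± 0.030 in LM1-LM (edgeR adjusted p = 0.00539). These Krt8 differences are the smallest of the group, and with upper-quartile scaling that of LM1-LM was 0.014 (edgeR adjusted p = 0.732). The Myc310 difference of Krt8 was not called when any 1 of 4 cultures was left out (control culture 2, deprived culture 2 or deprived culture 3 of MYAZ16.1e, or deprived culture 1 of Myc310), at edgeR adjusted p from 0.0523 to 0.0617.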

How the results depend on the processing

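The number of the genes called moved with the unit of replication, the filter and the libraries used, and so did the number over all genes. With counts summed per line, 0 were called in Myc310 against MYAZ, 2 in LM against MYAZ, 2 in LM-LM against MYAZ and 0 in LM against Myc310, beside 1429, 3788, 4226 and 2 of 16017 genes. With limma voom and line as a random effect the same comparisons gave 2, 2, 3 and 0, beside 2819, 4759, 5054 and 37 of 13795 genes. Requiring at least 10 counts in every library, which removes Krt14 and Esr1, gave 3 in LM and 3 in LM-LM against MYAZ, beside 6638 and 6864 of 10774 genes, and fitting only the libraries compared gave 3, 2 and 0 in LM against MYAZ, LM-LM against MYAZ and LM against Myc310, beside 7443 of 12451, 7525 of 12416 and 1286 of 12786. Without a filter, 1 gene was called for the difference of the Myc310 response from that of MYAZ16.1e, beside 5159 of 24667. Leaving out a line or culture number gave 1 to 5 in Myc310 against MYAZ, 3 to 6 in LM against MYAZ, 0 to 1 in LM against Myc310 and 0 to 3 in LM-LM against LM, beside 5366 to 7791, 7095 to 8850, 188 to 1495 and 0 to 2063 genes in all. Leaving out a culture gave 3 to 5 for the MYAZ16.1e response and 1 to 2 for the Myc310 difference, beside 6598 to 6745 and 4994 to 5193 genes in all.

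Directions reversed only for Krt7, Krt8, Krt18, Krt19, Gata3 and Esr1, and among called values only for Krt7 in LM-LM against MYAZ, with a range of -1.33 to 1.97 over the lines and cultures left out. Uncalled values crossed 0 as follows when a line or culture was left out. Krt19 ranged from -0.57 to 0.71 in Myc310, -0.45 to 1.07 in LM and -3.30 to 0.87 in LM-LM against MYAZ, from -0.19 to 0.88 in LM against Myc310 and from -3.42 to 0.37 in LM-LM against LM. Gata3 ranged from -0.25 to 0.019 in LM against MYAZ and -0.18 to 0.12 in LM-LM against LM. Krt18 ranged from -0.020 to 0.46 in LM against Myc310 and -0.77 to 0.047 in LM-LM against LM, Krt7 from -3.15 to 0.36 in LM-LM against LM, and Esr1 from -0.57 to 0.79 in LM against Myc310. In the deprivation and NDI1 comparisons, Krt7 ranged from -0.045 to 0.059 in Myc310, the LM1-LM difference of Krt19 from -0.19 to 0.070, and with NDI1 Krt7 from -0.045 to 0.037 and Krt18 from -0.059 to 0.014. Upper-quartile scaling gave -0.017 for Krt7 in deprived Myc310 and -0.022 for the LM1 difference of Krt8. Voom gave -0.22 for Esr1 and -0.20 for Krt19 in LM against Myc310, and -0.17 and 0.037 for Krt19 in LM and Myc310 against MYAZ.

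Of 1150 values of single genes under the alternatives, 1026 kept their direction and their side of the threshold, 74 lost and 9 gained a call, and 41 reversed. With the replicate number as a block, counts called were 4, 5 and 4 in Myc310, LM and LM-LM against MYAZ, and the only single call that changed was Krt7 in LM-LM against MYAZ (1.44, edgeR adjusted p = 0.0572). Whether the numbers pair the samples is not known. The cause of these changes was not tested. Depth limits Krt5, Elf5, Trp63, Krt14 and Esr1, whose levels rest on at most 48 counts in a library.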
